A study of Mus musculus with 12 samples.

Results

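The 10 genes described here mark the steps by which oligodendrocyte precursor cells become oligodendrocytes in the mouse cortex: Pdgfra, Cspg4, Olig1, Olig2, Sox10, Bcas1, Enpp6, Myrf, Gpr17 and Itpr2. They were taken by gene symbol from a table of 33024 symbols, and all 10 were among the 16059 genes with enough counts to be tested. The study asked how binge-like alcohol drinking changes gene expression in the mouse brain, and RNA-seq was made from frozen cortex of 12 C57BL/6 mice, 7 Control and 5 EtOH. EtOH mice, from 30 days of age, had a two-bottle choice between water and ethanol at 20% v/v. Access was for 12 h in the dark on each of 35 days. They were then without ethanol for 14 days before behavioural tests began. Control mice, labelled as vehicle, received a pair of water bottles on the same schedule. By the study's methods, both groups went through maze, swimming and rotarod tests, and tissue was taken after all of these. The labels name no transgene or deletion, and each library came from a separate mouse.

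Oligodendrocyte precursor cells, or OPCs, are dividing glia spread through the grey and white matter of the adult brain. Growth factors acting on receptors at their surface keep them dividing, and transcription factors of the Olig and Sox families hold their lineage. A part of these cells stops dividing, passes through a short premyelinating stage with genes of its own, and becomes mature oligodendrocytes that wrap axons in myelin. Pdgfra, the receptor for platelet-derived growth factor A, and Cspg4, the NG2 proteoglycan, are switched off as a precursor differentiates. Myrf, a membrane-bound transcription factor that turns on myelin genes, and Bcas1, a marker of premyelinating and early myelinating cells, are switched on.

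Library totals ranged from 31768076 to 42183029 counts, and levels are given as CPM, a count adjusted for the total of its library, after TMM scaling, in which 3 counts correspond to at most 0.0944 CPM. The lowest count of any member in any mouse was 186, for Enpp6. Cortical markers summed to between 557 and 713 CPM in Control mice and between 598 and 706 CPM in EtOH mice, which overlapped. Striatal markers summed to between 1292 and 2915 CPM in Control mice and between 376 and 481 CPM in EtOH mice, and hippocampal markers to between 369 and 507 CPM and between 664 and 877 CPM. Neither of these sums overlapped between groups, so tissue composition and ethanol cannot be told apart in any difference given here. A striatal marker score alone took up 95.6% of the variance between group labels. EtOH mouse 2 stood apart from the other EtOH mice in the oligodendrocyte lineage, with the highest value of the 5 for Olig1, Olig2, Sox10, Myrf, Bcas1, Enpp6 and Itpr2 and the lowest for Pdgfra, Cspg4 and Gpr17. It had the lowest striatal marker sum of all mice, 376 CPM, and for most members the result without it is also given.

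The 10 genes did not move together. At an adjusted p under 0.05, Pdgfra, Cspg4 and Itpr2 rose in EtOH mice, while Olig1, Olig2, Myrf and Bcas1 fell, and Sox10, Gpr17 and Enpp6 did not pass the test. Among all genes tested, 12.1% passed in the higher direction and 11.6% in the lower direction. A gene was called different when its log2 fold change also exceeded 0.5 in size, which held for 1 member that was lower, Bcas1, and for 0 that were higher. The same criterion called 4.2% of all genes higher and 4.09% lower. In whole tissue, fewer cells of a type and less RNA per cell cannot be told apart. Each adjusted p is from the quasi-likelihood test of edgeR, with the Benjamini-Hochberg correction made over all genes tested.

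**Figure D1:**
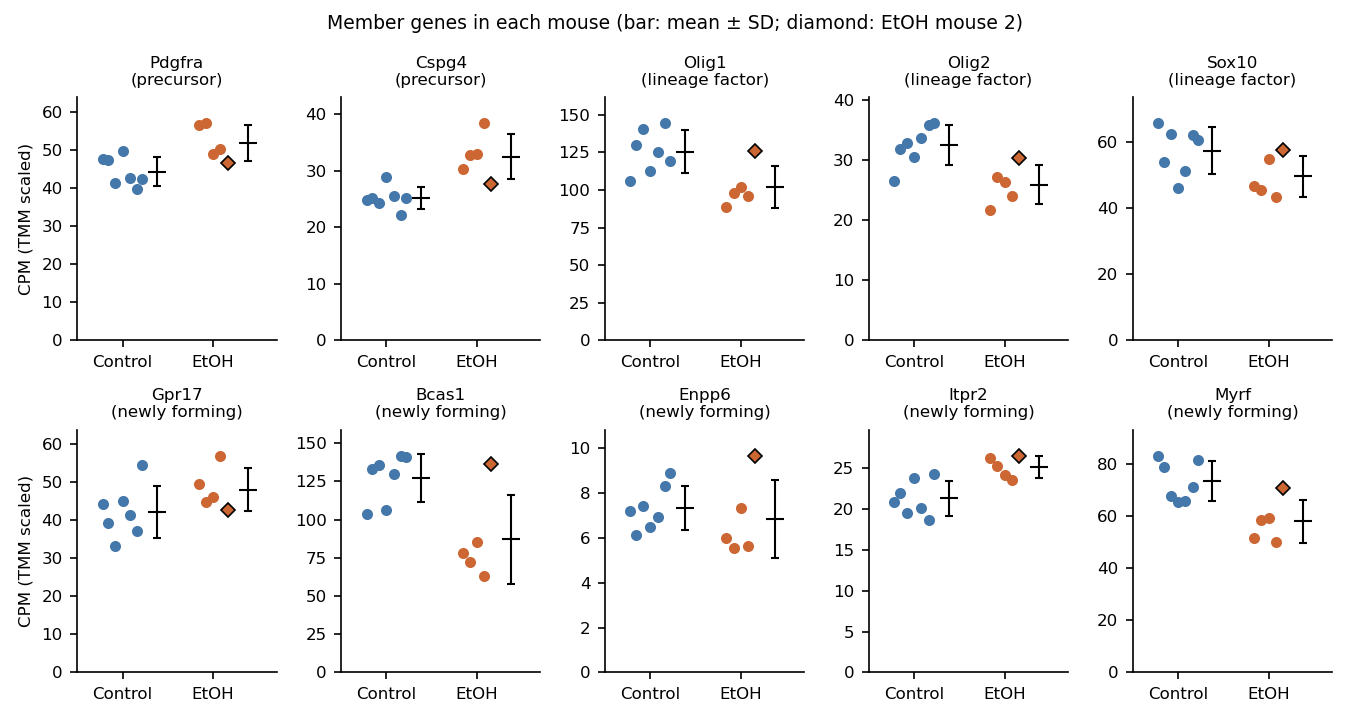
Level of each of the 10 genes in CPM in every mouse, with 7 Control and 5 EtOH mice as points and the group mean and SD as a bar at the right of each group. EtOH mouse 2, drawn as a diamond, sits among the Control mice for Bcas1, Olig1 and Myrf, while the other 4 EtOH mice lie below all of them.

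Pdgfra, the receptor through which platelet-derived growth factor A keeps precursors dividing, measured 39.7 CPM in the lowest, 42.7 CPM in the median and 49.7 CPM in the highest Control mouse. The EtOH mice measured 56.7, 46.7, 57.1, 50.2 and 49.2 CPM from mouse 1 to mouse 5. Mice 1, 3 and 4 were above every Control mouse and the other EtOH mice were inside the Control range. The log2 fold change of Pdgfra was 0.23 with an SE of 0.07 (edgeR adjusted p = 0.0253), a mean 17.0% higher. Without Control mouse 2, 3 or 4 or EtOH mouse 1 or 3 the edgeR adjusted p was above 0.05, between 0.0502 and 0.0788, with log2 fold changes between 0.19 and 0.22. Without EtOH mouse 2 the log2 fold change was 0.26 (edgeR adjusted p = 0.0153).

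Cspg4, the NG2 proteoglycan of the precursor surface, measured 22.2, 25.1 and 28.9 CPM in the lowest, median and highest Control mouse. Its EtOH values were 30.3, 27.7, 32.9, 38.4 and 33.1 CPM, so 4 of 5 EtOH mice exceeded all Control mice and only EtOH mouse 2 lay in the Control range. Cspg4 rose by the most of the 3 members that rose, with a log2 fold change of 0.37 and an SE of 0.08 (edgeR adjusted p = 0.00245). It passed in all 12 analyses that left out 1 mouse, with log2 fold changes between 0.30 and 0.41. Cspg4 is also made by pericytes and Pdgfra by meningeal fibroblasts. The 10 pericyte and mural markers listed summed to between 217 and 249 CPM in Control mice and between 221 and 240 CPM in EtOH mice. Of these, 9 were tested and 0 passed the test. The 8 meningeal fibroblast markers summed to between 44.1 and 63.1 CPM in Control mice and to 84.0, 36.3, 115, 69.3 and 82.7 CPM in EtOH mice 1 to 5. The lowest fibroblast sum was in EtOH mouse 2 and the highest in EtOH mouse 3, which were also the lowest and highest EtOH mice for Pdgfra. 1 of the 8 fibroblast markers passed the test, and its part in the Pdgfra difference was not tested.

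The start of a gene is where lineage transcription factors can bind, so the 250 bases before the RefSeq start (build GRCm38.p6) are shown for the members that passed the test and have an entry, given 5′ to 3′ on the strand of the gene. RefSeq windows were matched for 5 of the 10 members, and Enpp6, which did not pass, is the one not printed. The windows lie at chr5:75152001-75152250 (Pdgfra, plus strand), chr9:56864854-56865103 (Cspg4, plus strand), chr6:146502224-146502473 (Itpr2, minus strand) and chr16:91225300-91225549 (Olig2, plus strand). Capitals mark an E-box, CANNTG, the motif family of helix-loop-helix factors such as Olig1 and Olig2.
Pdgfra: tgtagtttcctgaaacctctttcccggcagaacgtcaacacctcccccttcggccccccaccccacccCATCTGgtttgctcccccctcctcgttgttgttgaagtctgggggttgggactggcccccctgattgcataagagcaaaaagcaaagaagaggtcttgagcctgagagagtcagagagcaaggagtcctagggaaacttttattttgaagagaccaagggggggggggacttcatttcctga
Cspg4: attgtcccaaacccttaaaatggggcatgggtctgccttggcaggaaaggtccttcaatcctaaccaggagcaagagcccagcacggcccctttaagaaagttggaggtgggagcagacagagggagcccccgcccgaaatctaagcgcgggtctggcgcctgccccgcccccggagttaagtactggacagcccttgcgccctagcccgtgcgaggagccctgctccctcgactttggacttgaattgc
Itpr2: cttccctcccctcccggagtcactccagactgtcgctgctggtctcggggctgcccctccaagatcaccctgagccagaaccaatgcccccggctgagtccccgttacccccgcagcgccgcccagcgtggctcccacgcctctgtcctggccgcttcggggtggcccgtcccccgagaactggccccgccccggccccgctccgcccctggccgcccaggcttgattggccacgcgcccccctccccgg
Olig2: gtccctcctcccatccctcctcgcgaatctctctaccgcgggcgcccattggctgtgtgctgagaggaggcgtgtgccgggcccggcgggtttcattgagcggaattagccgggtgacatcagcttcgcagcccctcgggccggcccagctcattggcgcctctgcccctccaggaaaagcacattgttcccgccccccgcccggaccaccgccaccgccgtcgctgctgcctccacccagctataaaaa
The Pdgfra window held 1 E-box, and the windows of Cspg4, Itpr2, Olig2 and Enpp6 held 0, where 66.2% of 32851 mouse windows of the same length held at least 1. The core of the SOX motif, ACAAAG or its reverse complement CTTTGT, was searched on both strands and was in 0 of the 5 windows against 16.5% of all windows. GC content ran from 38.4% in Enpp6 to 54.4% in Pdgfra, 60.4% in Cspg4, 66.8% in Olig2 and 74.4% in Itpr2, with a median of 52.4% over all windows.

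Olig1 and Olig2 are helix-loop-helix factors that define the lineage, and they are neighbours on chromosome 16 (GRCm39), where the Gencode annotation places 0 protein-coding genes in the 41092 bases between them. Olig1 measured 106, 126 and 144 CPM in the lowest, median and highest Control mouse and 88.9, 126, 98.1, 96.3 and 102 CPM in EtOH mice 1 to 5. All EtOH mice except mouse 2 were below every Control mouse. Its log2 fold change was -0.30 with an SE of 0.09 (edgeR adjusted p = 0.0207), and it was -0.39 without EtOH mouse 2 (edgeR adjusted p = 0.00229). The test was no longer passed without EtOH mouse 1 (edgeR adjusted p = 0.0687) or EtOH mouse 4 (edgeR adjusted p = 0.0536). Olig2 measured 26.5, 32.8 and 36.1 CPM in the lowest, median and highest Control mouse, and 21.7, 30.4, 27.2, 24.0 and 26.4 CPM in EtOH mice. Mice 1, 4 and 5 were below all Control mice. Olig2 fell by 0.32 on the log2 scale with an SE of 0.09 (edgeR adjusted p = 0.0121) and passed in all 12 analyses that left out 1 mouse.

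Sox10, the factor that keeps the lineage through to myelination, measured 46.1, 60.6 and 65.8 CPM in the lowest, median and highest Control mouse. In EtOH mice it measured 46.8, 57.7, 45.7, 43.4 and 55.0 CPM, and only mice 3 and 4 were below every Control mouse. The log2 fold change of -0.21 with an SE of 0.09 did not pass (edgeR adjusted p = 0.105). It passed without EtOH mouse 2, at -0.28 (edgeR adjusted p = 0.0409), and without Control mouse 5, at -0.27 (edgeR adjusted p = 0.0227).

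Myrf, which drives the myelin genes directly, measured 65.5, 71.4 and 83.4 CPM in the lowest, median and highest Control mouse. The EtOH mice measured 51.6, 71.1, 58.6, 50.3 and 59.3 CPM, all below the Control range except mouse 2, which was close to the Control median. Myrf fell by 0.34 on the log2 scale with an SE of 0.09 (edgeR adjusted p = 0.00974), a mean 58.2 CPM against 73.5 CPM. It passed in each of the 12 analyses with 1 mouse left out, between -0.43 without EtOH mouse 2 and -0.29.

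Gpr17, a receptor made by committed precursors before they myelinate, measured 33.2, 41.4 and 54.4 CPM in the lowest, median and highest Control mouse. Its EtOH values were 49.6, 42.7, 44.7, 56.9 and 46.1 CPM, and only EtOH mouse 4 lay above the Control range. The log2 fold change of 0.19 with an SE of 0.10 did not pass (edgeR adjusted p = 0.182). Control mouse 7 held the highest Control value, and without it the log2 fold change was 0.26 (edgeR adjusted p = 0.0378). The exons of Gpr17 share 320 bases with those of Lims2 on the opposite strand. The strand setting of the counting was not given in the sources used here, so how reads of the overlap were counted is not known.

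Bcas1, which marks premyelinating and early myelinating oligodendrocytes, had the largest difference of the 10 genes. It measured 104, 133 and 142 CPM in the lowest, median and highest Control mouse, and 78.1, 137, 72.1, 62.8 and 85.3 CPM in EtOH mice 1 to 5. 4 of the 5 EtOH mice were below all Control mice, and EtOH mouse 2 was above the Control median, so the EtOH group had a CV of 33.3% against 12.5% in the Control group. Bcas1 fell by 0.55 on the log2 scale with an SE of 0.15 (edgeR adjusted p = 0.0125). The fall was larger without EtOH mouse 2, at -0.78 (edgeR adjusted p = 3.02e-05). It passed the adjusted p in all 12 analyses with 1 mouse left out, but without EtOH mouse 3 or EtOH mouse 4 its size was under 0.5, at the smallest -0.45, and it was not called. Antisense RNAs overlap its exons over 440 and 207 bases.

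Enpp6, a choline phosphodiesterase that marks newly forming oligodendrocytes, was the lowest of the 10 genes. It measured 6.14, 7.21 and 8.88 CPM in the lowest, median and highest Control mouse. In EtOH mice it measured 6.00, 9.68, 5.55, 5.64 and 7.36 CPM, with mice 1, 3 and 4 below and mouse 2 above every Control mouse. The log2 fold change was -0.10 with an SE of 0.14 (edgeR adjusted p = 0.625), and it did not pass without EtOH mouse 2 either, at -0.27 (edgeR adjusted p = 0.118).

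Itpr2, the inositol trisphosphate receptor of newly forming oligodendrocytes, ran opposite to Bcas1. It measured 18.7, 20.9 and 24.3 CPM in the lowest, median and highest Control mouse and 26.3, 26.6, 25.3, 23.5 and 24.2 CPM in EtOH mice, of which mice 1, 2 and 3 were above all Control mice. Itpr2 rose by 0.24 on the log2 scale with an SE of 0.07 (edgeR adjusted p = 0.0232), and it was no longer past the threshold without EtOH mouse 1 (edgeR adjusted p = 0.0533) or EtOH mouse 2 (edgeR adjusted p = 0.0551). Astrocytes make Itpr2 as well. Of 10 astrocyte markers, 4 passed the test as higher and 0 as lower, with a median log2 fold change of 0.17 and sums between 3687 and 4200 CPM in Control mice and between 3984 and 4526 CPM in EtOH mice. Their part in the Itpr2 difference was not tested. With the striatal score as a covariate the sign of the Itpr2 difference turned, to -0.43 with an SE of 0.31 (edgeR adjusted p = 0.871).

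**Figure D2:**
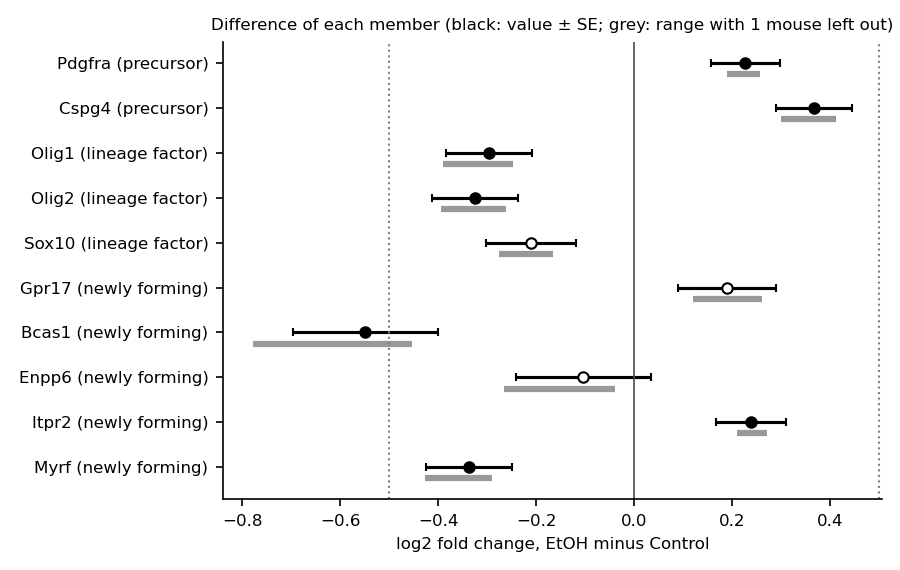
Log2 fold change of each gene, EtOH minus Control, with its SE (black, filled where the adjusted p was under 0.05) and the range over 12 analyses that each left out 1 mouse (grey). Bcas1 lies farthest from 0 at -0.55 and has the widest grey range, from -0.78 to -0.45, and the dotted lines mark 0.5 in size.

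In GRCm39 coordinates, Pdgfra lies at chr5:75311994-75358876, Cspg4 at chr9:56772317-56807187, Olig2 at chr16:91019435-91025567 and Olig1 at chr16:91066660-91068821. Sox10 lies at chr15:79039108-79049469, Myrf at chr19:10185634-10218161 and Bcas1 at chr2:170188911-170269765. Enpp6 lies at chr8:47439919-47549797, Itpr2 at chr6:146009797-146403721 and Gpr17 at chr18:32076050-32082888. Exons of Pdgfra, Olig1, Olig2 and Itpr2 share bases with predicted transcripts and those of Pdgfra also with the microRNA gene Mir7025, while those of Cspg4, Sox10, Myrf and Enpp6 overlap no other annotated gene.

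None of the 10 genes separated the groups completely. Of all genes tested, every EtOH mouse was above every Control mouse for 4.84% and below for 4.96%. The number of EtOH mice beyond the whole Control range was 4 for Cspg4, Olig1, Myrf and Bcas1, and EtOH mouse 2 was the exception for each of them. Enpp6 also had 4 EtOH mice beyond that range, 3 below and 1 above, where EtOH mouse 2 was the one above and EtOH mouse 5 was inside. Without EtOH mouse 2, 2 members passed as higher, Pdgfra and Cspg4, and 5 as lower, Olig1, Olig2, Sox10, Bcas1 and Myrf.

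**Figure D3:**
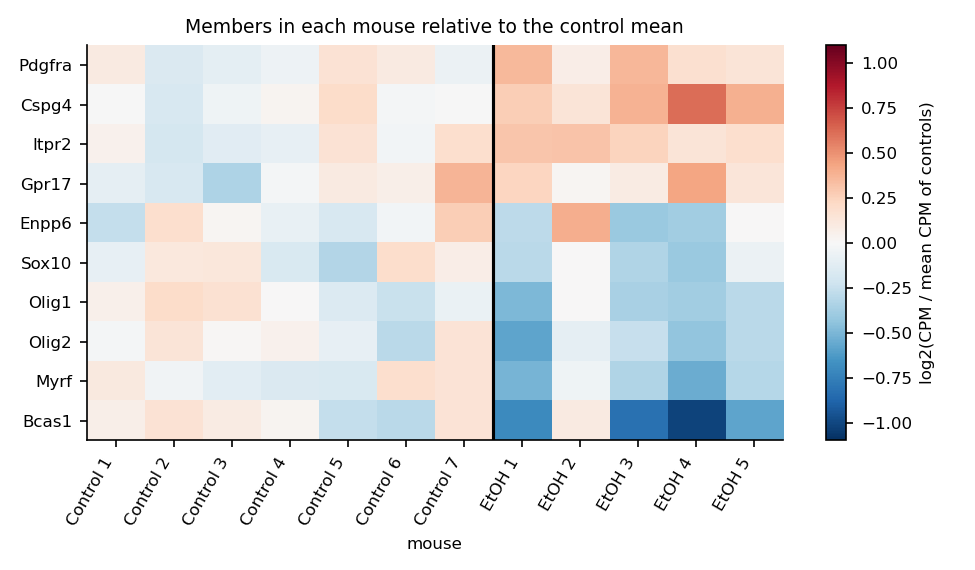
Each gene (rows) in each mouse (columns) as log2 of its CPM over the mean of the 7 Control mice, with red above and blue below that mean. In the rows of Olig1, Olig2, Myrf and Bcas1 the column of EtOH mouse 2 is near white where the other EtOH mice are blue. Pdgfra, Cspg4 and Itpr2 are above the Control mean in every EtOH column, though Pdgfra in EtOH mouse 2, at 0.072, is also near white.

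Per kilobase of exon, the 10 genes in Control mice ran down from Olig1 at 58.1 CPM per kb, Bcas1 at 33.7, Sox10 at 17.3, Myrf at 8.52, Olig2 at 7.85 and Gpr17 at 7.80. The last 4 were Pdgfra at 3.61, Cspg4 at 2.10, Itpr2 at 1.32 and Enpp6 at 1.15 CPM per kb. Most neighbours in this order did not overlap in the Control mice. Myrf was above Olig2 in 4 of 7 Control mice, Olig2 above Gpr17 in 4 of 7 and Itpr2 above Enpp6 in 6 of 7, so these pairs could not be ordered beyond their spread. In EtOH mice Gpr17 was above Olig2 in 5 of 5, with a mean Olig2 level of 0.705 times that of Gpr17 per kb of exon. Itpr2 was above Enpp6 in 5 of 5, and Myrf above Olig2 in 5 of 5 with a mean level 1.08 times as high.

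Comparing genes within a mouse asks whether later stage genes, and the other precursor gene Cspg4, changed relative to the precursor gene Pdgfra. For 6 genes the log2 ratio of CPM to that of Pdgfra was compared between groups by exact permutation, two-sided, over the 792 divisions of the mice, which can give no p below 0.00126. These ratios were chosen with the levels above already known, so a lower ratio for genes that fell while Pdgfra rose is no independent support for either difference. The log2 ratio of Myrf to Pdgfra was 0.40, 0.74 and 0.94 in the lowest, median and highest Control mouse and -0.14, 0.61, 0.04, 0.0026 and 0.27 in EtOH mice 1 to 5. It was lower by 0.57 in EtOH mice (exact permutation p = 0.00253, adjusted over 6 ratios 0.0152), and 4 of 5 EtOH mice were below all Control mice.

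The log2 ratio of Bcas1 to Pdgfra was 1.09, 1.61 and 1.84 in the lowest, median and highest Control mouse and 0.46, 1.55, 0.34, 0.32 and 0.79 in EtOH mice. The difference was -0.82 (exact permutation p = 0.0101, adjusted 0.0303), again with EtOH mouse 2 as the only EtOH mouse in the Control range. Neither result passed in every analysis with 1 mouse left out. The adjusted exact permutation p of the Myrf ratio rose to 0.0519 without Control mouse 2, 3 or 7. That of the Bcas1 ratio rose to between 0.0545 and 0.0649 without Control mouse 2, 3, 4 or 7 or EtOH mouse 1, 3 or 4. Fewer mice also make fewer divisions possible, and the differences stayed between -0.68 and -0.50 for Myrf and between -1.03 and -0.73 for Bcas1.

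The other 4 ratios did not pass. The log2 ratio of Cspg4 to Pdgfra differed by 0.14 (exact permutation p = 0.128, adjusted 0.191). For Enpp6 the difference was -0.35 (exact permutation p = 0.125, adjusted 0.191). For Gpr17 it was -0.03 (exact permutation p = 0.813, adjusted 0.813). For Itpr2 it was 0.02 (exact permutation p = 0.793, adjusted 0.813). Enpp6 passed without EtOH mouse 2, at -0.52 (exact permutation, adjusted p = 0.0364). The ratios of different genes were not tested against each other.

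**Figure D4:**
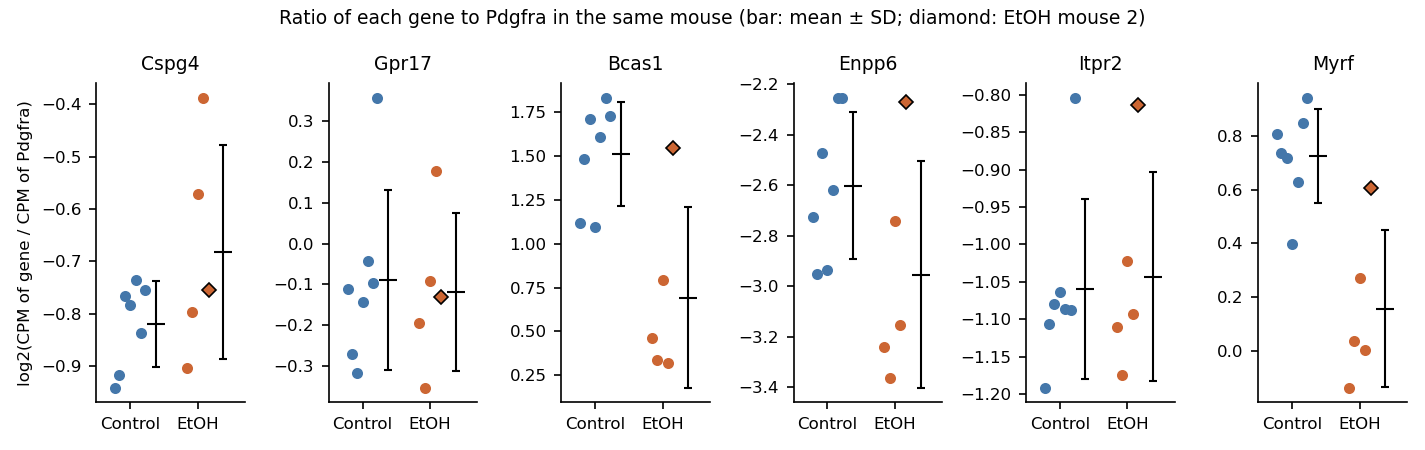
Log2 ratio of each of 6 genes to Pdgfra in the same mouse, with the group mean and SD as a bar and EtOH mouse 2 as a diamond. For Bcas1 and Myrf 4 EtOH mice sit below all Control mice, while for Gpr17 and Itpr2 the groups overlap.

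Genes around the 10 members were examined as lists by stage. Of 15 other OPC markers, 4 passed the test as higher and 3 as lower, with a median log2 fold change of -0.06 against 7.2e-05 over all genes tested, and 1 was called in each direction. Cacng4, an AMPA receptor auxiliary subunit that neurons also make, was the one called lower and fell by 1.08 with an SE of 0.11 (edgeR adjusted p = 1.22e-06), from 69.2 ± 11.7 CPM (SD, n = 7) to 32.8 ± 2.65 CPM (SD, n = 5), without overlap. The OPC markers thus moved in both directions.

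Of 14 newly forming oligodendrocyte genes tested, of 15 listed, 1 passed as higher and 1 as lower, with a median log2 fold change of 0.0035. The lower one was Lims2, which shares exon bases with Gpr17 and fell by 0.54 with an SE of 0.10 (edgeR adjusted p = 0.000956).

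Of 21 other transcription and chromatin factors of the lineage, 5 passed as higher and 3 as lower, with a median log2 fold change of -0.0011. Id4, an inhibitor of helix-loop-helix factors that delays differentiation, fell by 0.54 with an SE of 0.09 (edgeR adjusted p = 0.000284), from 89.5 ± 12.6 CPM (SD, n = 7) to 61.6 ± 5.08 CPM (SD, n = 5), with all EtOH mice below all Control mice. Of 24 signalling genes tested, of 25 listed, 4 passed as higher and 2 as lower, with a median log2 fold change of 0.07. Egfr, the epidermal growth factor receptor, rose by 0.50 with an SE of 0.09 (edgeR adjusted p = 0.000551). Hrh3, a histamine receptor abundant in striatal neurons, fell by 0.70 with an SE of 0.09 (edgeR adjusted p = 2.2e-05).

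The mature oligodendrocyte and myelin genes moved one way. All 20 were tested, 16 passed as lower and 0 as higher, 5 were called lower, and the median log2 fold change was -0.42. Mbp, myelin basic protein, fell from 2645 ± 298 CPM (SD, n = 7) to 1864 ± 478 CPM (SD, n = 5). The log2 fold change of Mbp was -0.50 with an SE of 0.12 (edgeR adjusted p = 0.00568). Hapln2, a link protein at nodes of Ranvier, fell by 0.65 (edgeR adjusted p = 0.000522). Gjb1, the connexin 32 gap junction gene, fell by 0.76 (edgeR adjusted p = 0.00231), and Apod, an apolipoprotein of mature oligodendrocytes, fell by 0.51 (edgeR adjusted p = 0.00378). The 20 genes summed to 5431, 6143 and 7029 CPM in the lowest, median and highest Control mouse and to 4167, 6392, 4037, 3654 and 4537 CPM in EtOH mice. EtOH mouse 2 was the only EtOH mouse within the Control range, the same placing as for Myrf, Olig1 and Bcas1. With a score of the myelin genes as a covariate, which took up 56.3% of the variance between group labels, 0 of the 10 members passed in either direction. The log2 fold change of Bcas1 was then 0.0022 with an SE of 0.10 and that of Myrf -0.07 with an SE of 0.10. Cspg4 at 0.12, Pdgfra at 0.089, Olig2 at -0.15 and Olig1 at -0.067 were also smaller in size than without the covariate. The log2 fold change of Itpr2 was 0.29 with an SE of 0.11, no smaller than without the covariate (edgeR adjusted p = 0.128). That of Enpp6 was 0.34 with an SE of 0.14 (edgeR adjusted p = 0.161).

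**Figure D5:**
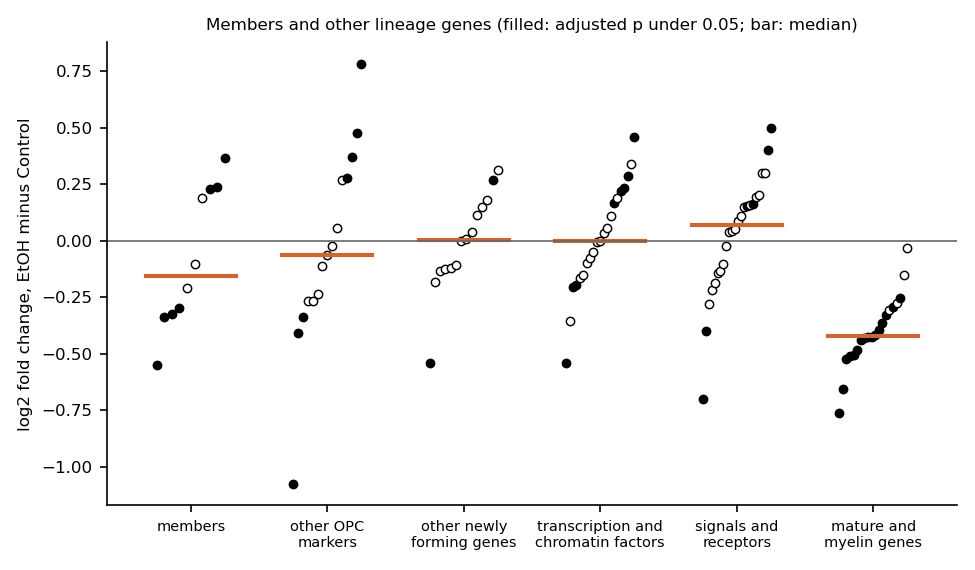
Log2 fold change, EtOH minus Control, of each tested gene in the 10 members and 5 lists of related genes, filled where the adjusted p was under 0.05, with the list median as a bar. The myelin genes are all below 0 with a median of -0.42, while the other lists spread to both sides of 0.

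Markers of other cell types moved with the group as well. Of 10 microglia markers, 7 passed as lower and 0 as higher, and their sums were between 373 and 421 CPM in Control mice and between 323 and 346 CPM in EtOH mice. Of 8 neuron markers, 5 passed as lower and 0 as higher, with sums between 7327 and 8475 CPM in Control mice and between 6838 and 7301 CPM in EtOH mice, which did not overlap. Of 10 endothelial markers, 2 passed as lower and 0 as higher, and 4 of 5 EtOH sums were below all Control sums. Of 5 blood markers, 0 passed. Choroid plexus markers summed to between 7.86 and 21.7 CPM in Control mice and to 121, 20.4, 991, 278 and 11.5 CPM in EtOH mice 1 to 5. All 10 striatal markers were called lower, and 7 of 10 hippocampal markers were called higher. Of 8 cortical markers, whose sums overlapped between groups, 3 passed as higher and 1 as lower. None of the markers listed for any of these cell types or regions was at 0 in all mice. The part of these cell types and regions in the members' differences was not tested beyond the fits with marker scores. With the striatal score as a covariate, 0 members passed in either direction, with far wider errors. Bcas1 was then at -1.21 with an SE of 0.67, Olig2 at -0.78 with an SE of 0.39, Myrf at -0.76 with an SE of 0.40 and Pdgfra at 0.40 with an SE of 0.34, each larger in size than without the covariate. Cspg4 was smaller at 0.10 with an SE of 0.38, and so was Olig1 at -0.26 with an SE of 0.42. The sign turned for Gpr17, at -0.62 with an SE of 0.42, as it did for Itpr2. Sox10 at -0.35 and Enpp6 at -0.99, which had not passed, kept their sign.

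The genes with the profile closest to a member over the 12 mice were found by the root mean square difference in log2 CPM after centring, among 13515 genes. For Pdgfra they were Sike1 at 0.050, Gnl3l at 0.055 and Gda at 0.056, where Pdgfra itself varied by 0.16 around its mean. For Gpr17 they were Anks1 at 0.077, Mcf2l at 0.084 and Lnx1 at 0.085. For Enpp6 they were Poc1a at 0.12, Kcnab3 at 0.14 and the myelin gene Cnp at 0.14. For Myrf they were Prr18 at 0.071, the desaturase Scd1 at 0.073 and Ttyh2 at 0.10. Values were alike over the same 12 libraries, which share the group difference.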

How the data were processed

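RNA-seq of frozen cortex from 12 mice was analysed. Per the labels and the study's methods, the authors checked reads with FastQC 0.11.9, aligned them to GRCm39 with STAR and counted them on genes with featureCounts, and DESeq2 was their test. The authors deposited expected counts per gene symbol without normalization. 61 symbols held values that were not whole, 0 of them members, and counts were rounded. All columns were matched to mice by name.

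Genes passing filterByExpr were scaled with TMM and compared with the quasi-likelihood test of edgeR 4.0.16 (limma 3.58.1, R 4.3.3), corrected after Benjamini and Hochberg, and the SE is the log2 fold change divided by the square root of F. Calls needed a log2 fold change over 0.5 in either direction and an adjusted p below 0.05. Ratios used log2 CPM. The steps were tested on simulated data. Alternatives were DESeq2 1.42.0, limma voom, other scalings and filters, a fold change minimum of 1, a replicate block, marker scores as covariates, leaving out each mouse or the deepest library of each group, and a prior count of 2 for ratios.

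The members and lists were chosen with earlier results of these data known. Named genes are the 10 members, up to 4 called genes per lineage list with the smallest p (where none was called, the 2 with the smallest p), and the 3 genes closest in profile to Pdgfra, Gpr17, Enpp6 and Myrf. A gene that this rule selects is not reported here one by one, but remains in the counts of its list. Gene positions and exon lengths are from the Gencode annotation of GRCm39, and promoter windows from RefSeq GRCm38.p6. No sequence is shown for members without a window. Counts per library, between 31768076 and 42183029, limit precision by counting error only.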

Additional observations from a re-analysis of the deposited data

Results flagged for a closer look

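Of 32 groups of values examined for a sample far from the others, 2 held one, where chance alone gives about 1 in 20. Both were ratios to Pdgfra in Control mouse 7. Its log2 ratio of Gpr17 to Pdgfra was 0.36, and the next highest Control mouse was at -0.04. Its log2 ratio of Itpr2 to Pdgfra was -0.80, and the next highest Control mouse was at -1.06.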

How the results depend on the processing

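With DESeq2, limma voom, RLE or upper quartile factors, either filter, or without the deepest library of each group, all 10 members kept their direction and their side of the threshold. With marker scores as covariates the members past the threshold went from 3 higher and 4 lower to 0 and 0, and the 1 called lower to 0, with each of the 3 sets of covariates. Directions reversed with the striatal and hippocampal scores (98.5% of the variance between group labels) for Pdgfra at -0.088, Gpr17 at -0.17 and Itpr2 at -1.19. With the striatal score alone they reversed for Gpr17 at -0.62 and Itpr2 at -0.43, and with the myelin score for Sox10 at 0.074, Bcas1 at 0.0022 and Enpp6 at 0.34. In the fit with both regional scores other members kept their direction at a larger size, with Bcas1 at -2.84 (SE 1.13), Myrf at -1.60 (SE 0.68), Olig2 at -0.94 (SE 0.71) and Cspg4 at 0.98 (SE 0.59). The cause was not tested. A minimum log2 fold change of 1 left 0 members called lower.

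With 1 mouse left out, the members called lower numbered 0 to 1, those past the threshold 1 to 4 higher and 3 to 5 lower. The lowest count of higher members, 1, came without EtOH mouse 1. The log2 ratio to Pdgfra then differed by 0.063 to 0.19 for Cspg4, -0.10 to 0.046 for Gpr17, -1.03 to -0.73 for Bcas1, -0.52 to -0.25 for Enpp6, -0.041 to 0.059 for Itpr2 and -0.68 to -0.50 for Myrf. The sign turned for Gpr17 without Control mouse 7 (0.046) or EtOH mouse 3 (0.030), and for Itpr2 without Control mouse 6 (-0.0052) or EtOH mouse 2 (-0.041). A prior count of 2 changed no ratio's call.

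Replicate numbers did not pair the mice. Same-numbered mice had deviations correlated between -0.11 and 0.02, and 1 of 10 mice correlated best with its own number. With the replicate number as a block, 4 members passed as higher and 4 as lower, with Gpr17 added at 0.29 (edgeR adjusted p = 0.0169), and 9 members kept their side. Depth did not limit the members, whose lowest count was 186, while 7 and 5 mice limit what can be detected.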
